A study of Mus musculus with 12 samples.

Results

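Interferon-stimulated genes were followed in mouse alveolar macrophages, the resident phagocytes of the airspaces, that lacked the vitamin D receptor gene Vdr, carried it, or were cultured with vitamin D3. The set holds 36 gene symbols: 4 transcription factors of the interferon response and 32 genes for antiviral, antigen-processing and chemokine proteins. All 36 were in the count table of 23413 genes, and 34 of them were among the 12748 genes past the filter on low counts. Usp18, which removes ISG15 from its targets, had 0 to 12 counts in a library and Ifi44, an antiviral gene, had 0 to 3, so neither was tested.

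Bulk mRNA sequencing covered 12 libraries in 6 groups of 2. Fresh macrophages came from lavage of wild-type (WT) and VDR knockout mice, each at 10 weeks and at 4 weeks of age. Wild-type macrophages were kept in culture for 24 h either without an agent or with 50 nM vitamin D3 (VD3). The labels do not give the age of the mice for the cultured cells, which allele the knockout carries, whether the deletion covers all cells, or whether replicates came from separate animals. The p-values therefore speak only to the spread among these libraries.

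Total counts ran from 10409572 to 23233674 a library, and 1 count was worth at most 0.0904 CPM (counts scaled to a common library size). The markers of alveolar macrophages had a high summed level throughout, at 24647 to 45240 CPM in fresh and 15078 to 17236 CPM in cultured libraries. Single markers of the list moved both ways in culture. Vdr mRNA did not separate the genotypes at 10 weeks, at 79.6 and 126.9 CPM in the libraries labelled wild type and 84.2 and 45.0 CPM in those labelled knockout. At 4 weeks it did, at 56.5 and 57.7 against 45.9 and 31.2 CPM, and whether the counted exons lie in the deleted part is not given. The description fields of knockout replicate 1 and wild-type replicate 2 at 10 weeks each name the other genotype. The group means of the authors' deposited log2 table equal the means by the genotype labels to within 4.26e-14, and those labels were used. Replicate 2 of both 10-week groups had Xist at 787.3 and 800.3 CPM, against at most 0.93 CPM in the other libraries. These libraries were also of another title series than replicate 1, so at 10 weeks sex, title series and replicate cannot be told apart, and all 4-week libraries share 1 series. Cyp24a1, the vitamin D-degrading enzyme and a direct target of the receptor, had 9859 and 3069 counts with vitamin D3 and 7 and 3 counts without it.

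Type I and type III interferons act through receptors that activate JAK1 and TYK2, which phosphorylate STAT2. With IRF9 it takes part in a complex that binds the interferon-stimulated response element (ISRE). Interferon gamma acts on the gamma-activated site (GAS). Unstimulated macrophages keep a low tonic level of many of these genes, and alveolar macrophages are known as an early source of type I interferon in viral infection of the lung.

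The ISRE core, searched on both strands as GAAA, any 2 bases and GAAA, was looked for from 250 bases before to 50 bases after each start in RefSeq promoters of GRCm38.p6. Of the 36 genes, 28 had a promoter in that table, and 15 of the 28 (53.6%) held the letters, against 3.99% of all 27025 genes in the table. The GAS letters TTCNNNGAA, which read the same pattern on both strands, were in 6 of 28 (21.4%) against 9.55% of all genes. A match is a description of letters and not a site. One promoter is shown for each of 6 families, that of the gene with a match and the highest mean CPM over the 12 libraries, because they show how the element is placed. Ddx58 was added after its values were seen, since it fell with vitamin D3. Each is the 250 bases before the start, except that for Ifih1 and Ddx58, whose match lies after the start, only 28 and 30 bases around it are shown. Capitals mark the ISRE core.
Stat2 (chr10:128270248-128270497, plus strand): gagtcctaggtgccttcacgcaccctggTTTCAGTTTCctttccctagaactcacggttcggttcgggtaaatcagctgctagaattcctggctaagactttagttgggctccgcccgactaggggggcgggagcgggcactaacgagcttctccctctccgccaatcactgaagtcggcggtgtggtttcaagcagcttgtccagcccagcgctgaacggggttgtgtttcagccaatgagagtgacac
Isg15 (chr4:156200819-156201068, minus strand): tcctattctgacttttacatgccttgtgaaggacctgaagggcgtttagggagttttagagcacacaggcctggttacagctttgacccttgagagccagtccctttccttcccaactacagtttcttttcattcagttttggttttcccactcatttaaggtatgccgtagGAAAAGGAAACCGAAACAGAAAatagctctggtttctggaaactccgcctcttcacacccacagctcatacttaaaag
Ifih1 (chr2:62646206-62646233, minus strand): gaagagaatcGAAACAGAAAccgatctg
Ifit3 (chr19:34583279-34583528, plus strand): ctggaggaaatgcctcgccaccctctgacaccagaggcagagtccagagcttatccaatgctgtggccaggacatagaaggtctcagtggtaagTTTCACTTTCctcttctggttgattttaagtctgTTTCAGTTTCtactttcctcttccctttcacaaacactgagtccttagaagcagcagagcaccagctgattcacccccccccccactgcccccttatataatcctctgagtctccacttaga
Oas1a (chr5:120907526-120907775, minus strand): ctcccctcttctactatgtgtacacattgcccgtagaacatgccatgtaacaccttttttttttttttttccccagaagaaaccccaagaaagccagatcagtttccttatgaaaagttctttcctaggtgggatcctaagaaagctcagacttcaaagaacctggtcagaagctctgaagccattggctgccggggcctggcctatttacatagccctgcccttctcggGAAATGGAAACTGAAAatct
Bst2 (chr8:71537473-71537722, minus strand): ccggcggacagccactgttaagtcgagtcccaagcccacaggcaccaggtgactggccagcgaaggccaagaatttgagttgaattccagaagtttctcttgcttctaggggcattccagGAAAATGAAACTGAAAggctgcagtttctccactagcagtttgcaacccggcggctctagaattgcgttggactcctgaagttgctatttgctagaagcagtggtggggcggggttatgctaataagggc
Ddx58 (chr4:40239804-40239833, minus strand): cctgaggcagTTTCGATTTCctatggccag

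Isg15 held 3 overlapping matches, the first starting 78 bases before the start, and Oas1a and Bst2 each held 2 overlapping matches. Stat2 held 1 match 222 bases before its start on the opposite strand. Genes of the table without these letters in the window included Irf7, Dtx3l, Cxcl9, Ifi35, Ifi47 and Tap1.

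Levels were set side by side per kb of exon (GRCm38 exon lengths), as CPM per kb over the 4 fresh wild-type libraries. Of the 36 genes, 14 were at 5 CPM per kb or more and 15 were under 1. Bst2, the tetherin that holds budding virus at the cell surface, was highest at 33.7 CPM per kb (29.0 to 36.5 over the 4 libraries). Ifi35 followed at 16.8 (14.9 to 18.2), and its range did not overlap that of Bst2. Stat2 at 12.9 (10.99 to 15.5), Dtx3l at 12.2 (10.7 to 12.8) and Irf1 came next, with overlapping ranges for the first pair. Genes that are classically among the most inducible, such as Ifit1, Oas2, Oasl2, Mx1, Rsad2 and Cxcl10, were in the low range, at under 1 CPM per kb.

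Interferon mRNA itself was nearly undetected. Of 14 interferon genes looked for, 11 had 0 counts in all 12 libraries, where a count of 0 allows up to 3 counts in a library. Ifnb1 and Ifna12 had 1 count each in all, and Ifnk had 20, at most 6 in a library. The 6 receptor genes tested were expressed: Ifnar1, a chain of the type I receptor, had group means between 65.9 and 89.2 CPM.

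**Figure D1:**
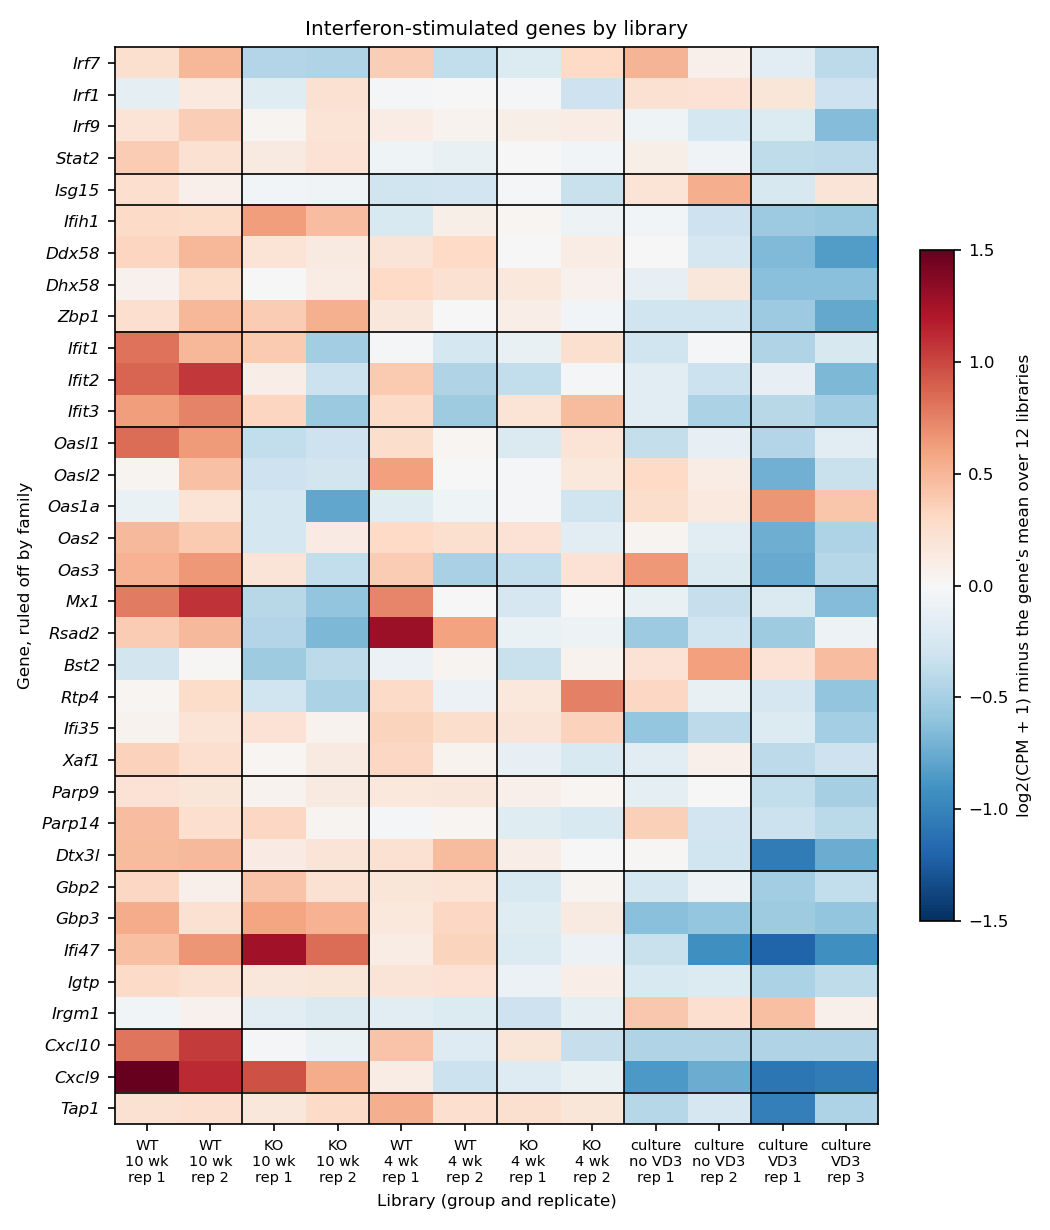
Each row is 1 of the 34 tested genes and each column 1 library; colour gives log2(CPM + 1) minus the gene's mean over the 12 libraries, cut at 1.5 in each direction, and black lines divide gene families and groups. The 10-week wild-type columns are mostly red (30 and 34 genes above their mean) and the vitamin D3 columns mostly blue (4 and 4 genes above it). Ifit1, Oasl1 and Cxcl10 reached the filter's level in both libraries of a group only in 10-week wild type. Their red there is partly fixed by the filter.

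The library medians differed between groups. The median deviation from the gene mean was 0.32 and 0.32 (log2) in the libraries labelled 10-week wild type, 0.08 and 0.08 in the 10-week knockout, 0.19 and 0.03 in the 4-week wild type and -0.03 and 0.01 in the 4-week knockout. In culture it was -0.11 and -0.21 without vitamin D3 and -0.44 and -0.45 with it. Among these genes Ifit1, Oasl1, Cxcl10, Mx1 and Oas2 reached the filter's level in both libraries of a group only in fresh wild type. The medians are thus partly shaped by the filter. Across the 12 libraries, which differ in depth and come from 2 title series, the median correlation of a gene with the mean of the others was 0.75, and 27 of 34 were over 0.5. Within groups, after each group mean was removed, the median was 0.15 and 8 of 34 were over 0.5. Across libraries 5 genes were under 0: Bst2 at -0.55, Oas1a at -0.49, Irgm1 at -0.46, Isg15 at -0.07 and Irf1 at -0.05.

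The first comparison asked how loss of the vitamin D receptor related to these genes in fresh macrophages. At 10 weeks none of the 34 genes passed the test (edgeR quasi-likelihood, Benjamini-Hochberg adjusted p under 0.05), where 0.11% of all genes did. With DESeq2 1 of the 34 genes, Mx1, passed, where 149 of all genes did. At an unadjusted p under 0.05 there were 8 genes with lower values in knockout and 0 with higher values, where 4.89% of all genes were lower at that level. The 2 groups did not overlap, with knockout lower, for 24 of the 34 (20.9% of all genes), and 27 of 34 had lower values (51.5% of all genes), with a median log2 difference of -0.29 against -0.01 for all genes. Within the first replicate pair 28 of 34 genes had lower values (median -0.25 on the log2(CPM + 1) scale) and within the second 27 (median -0.27). The scarce genes had the larger differences. Of 16 genes with a mean under 5 CPM over the 12 libraries, 15 had lower values, with a median of -1.13. Of 18 genes above that level, 12 had lower values, with a median of -0.12. With knockout replicate 1 and wild-type replicate 2 exchanged, as their descriptions name them, the median over the tested genes was 0.0034, and with a filter of 5 CPM in 2 libraries it was -0.11. Ifit1, Oasl1 and Cxcl10 reached the filter's level in both libraries of a group only in 10-week wild type, and Mx1 and Oas2 only in the wild-type groups. Their direction is thus partly fixed by the filter, and these counts support nothing further.

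Mx1 and Rsad2 encode antiviral effectors, a dynamin-like GTPase and viperin. Mx1 had 2.07 and 2.77 CPM in the 10-week wild-type libraries and 0.341 and 0.181 CPM in those labelled knockout. At 4 weeks it had 1.96 and 0.773 CPM in wild type and 0.498 and 0.771 CPM in knockout. The groups were apart at 10 weeks, and at 4 weeks the closest pair nearly met. Rsad2 had 1.62 and 1.82 CPM in 10-week wild type against 0.488 and 0.271 CPM in knockout. At 4 weeks it had 3.91 and 2.08 CPM against 0.885 and 0.911 CPM. Rsad2 was thus lower in each knockout library than in every wild-type library of the same age.

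Averaged over both ages, Rsad2 was lower by 3.74-fold (log2 difference -1.90 ± 0.41 SE; edgeR adjusted p = 0.0565) and Mx1 by 4.25-fold (-2.09 ± 0.50 SE; adjusted p = 0.0837), and neither passed. Over both ages 0 of 34 genes passed in edgeR (0.996% of all genes did). In DESeq2 2 passed, Rsad2 and Mx1, with adjusted p of 0.0108 and 0.0246, where 369 of all genes did. The unadjusted test found 7 lower and 0 higher, where 6.58% of all genes were lower. For 6 genes, Oas2, Mx1, Rsad2, Parp9, Dtx3l and Igtp, all 4 knockout libraries were below all 4 wild-type libraries of either age (2.28% of all genes). Of these, Oas2 and Mx1 reached the filter's level in both libraries of a group only in wild type. Their direction is thus partly fixed by the filter. With the same exchange of labels the 10-week difference became 0.31 for Mx1 and 0.0103 for Rsad2.

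Oasl1, a 2'-5'-oligoadenylate synthetase-like protein, had 29 and 14 counts in 10-week wild type and 1 and 1 in knockout, a ratio of 20.6 (95% counting interval 5.37 to 176). At 4 weeks it had 9 and 8 counts against 3 and 8, so the groups overlapped. Cxcl10, a chemokine that draws T cells, had 28 and 23 counts in 10-week wild type and 7 and 3 in knockout, and 12 and 4 against 10 and 1 at 4 weeks. Only the 10-week groups of Cxcl10 were apart. Oasl1 and Cxcl10 reached the filter's level in both libraries of a group only in 10-week wild type. The direction of their 10-week differences is thus partly fixed by the filter. Irf7, the master regulator of type I interferon induction, was at 4.14 and 5.14 CPM against 2.19 and 2.17 CPM at 10 weeks (log2 difference -1.08 ± 0.39 SE; edgeR adjusted p = 0.367). Its 4-week groups overlapped, at 4.61 and 2.37 against 2.77 and 4.34 CPM. The exchange of labels turned the 10-week difference of Irf7 to 0.22 and that of Cxcl10 to 0.30.

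The abundant genes differed less. Dtx3l, a ubiquitin ligase that works with Parp9, had 72.9 and 73.5 CPM in 10-week wild type and 56.9 and 59.7 CPM in knockout. At 4 weeks it had 61.1 and 72.5 against 56.0 and 51.8 CPM. Its difference over both ages was -0.32 ± 0.10 SE (edgeR adjusted p = 0.167), and with exchanged labels the 10-week difference was 0.0392. Stat2, Irf1, Irf9, Ifi35 and Tap1 had 10-week differences between -0.17 and 0.02. The interferon-inducible GTPase Ifi47 had the largest difference upward, 8.52 and 9.97 CPM in wild type against 15.6 and 11.4 CPM in knockout (0.56 ± 0.26 SE; edgeR adjusted p = 0.538).

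Of 71 other interferon-stimulated genes tested, 0 passed at 10 weeks in edgeR, where 0.11% of all genes did. At an unadjusted p under 0.05 there were 13 lower and 2 higher, where 4.89% of all genes were lower. At 4 weeks 1 fell, where 0.667% of all genes passed. Over both ages 3 fell, where 0.996% of all genes passed. Ube2l6, the conjugating enzyme for ISG15, had means of 33.4 ± 1.2 and 27.2 ± 1.3 CPM in wild type and knockout at 10 weeks and 39.1 ± 4.3 and 25.9 ± 1.0 CPM at 4 weeks (SD, n = 2). It fell over both ages (-0.44 ± 0.08 SE; edgeR adjusted p = 0.0294) and at 4 weeks (adjusted p = 0.0446). H2-K1, a class I antigen-presenting molecule, fell over both ages (-0.31 ± 0.06 SE; edgeR adjusted p = 0.0429). Phf11b also fell (edgeR adjusted p = 0.0379), from means of 1.20 and 0.569 CPM in 10-week and 4-week wild type to 0.115 and 0.0553 CPM in knockout.

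At 4 weeks 0 of 34 genes passed in edgeR, where 0.667% of all genes did, and 0 in DESeq2. The unadjusted test found Rsad2 and Dtx3l lower and 0 genes higher, where 5.65% of all genes were lower. The groups did not overlap, with knockout lower, for 15 of 34 (24.6% of all genes), and the median difference was -0.16. The difference between the ages in the knockout effect passed for 0 of 34 genes in edgeR (0.188% of all genes) and 0 in DESeq2, with 1 gene lower and 1 higher at an unadjusted p under 0.05 (8.65% of all genes in either direction).

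**Figure D2:**
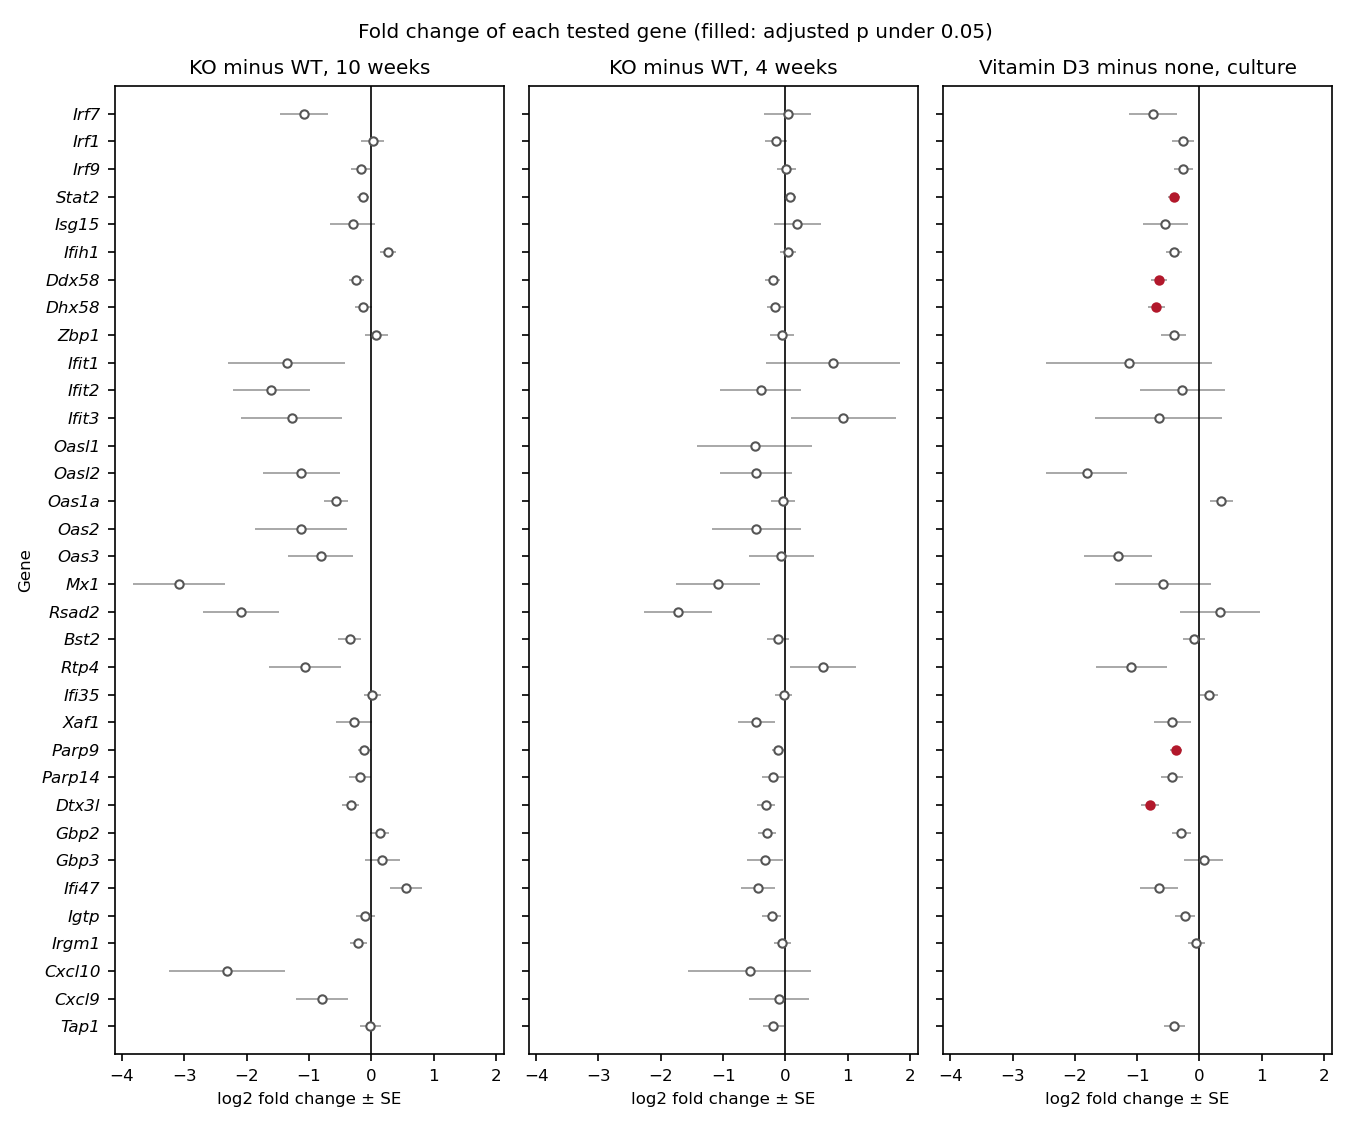
The log2 fold change with its SE is plotted for each tested gene in 3 comparisons on 1 scale; filled red points passed the adjusted threshold of 0.05, and genes with 3 or fewer counts in a group are left out. The wide intervals below 0 at 10 weeks belong to scarce genes such as Mx1 and Rsad2, and the 5 filled points are all in the vitamin D3 panel.

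Markers of conventional dendritic cells, which also express these genes, moved with genotype. Their sum over 8 markers was 62.3 to 80.2 CPM in 10-week wild type and 27.2 to 29.3 CPM in knockout, and 35.3 to 99.8 against 18.8 to 19.9 CPM at 4 weeks. Of the 7 tested markers 2 fell over both ages, and Cd209a was at 0 in the 4-week knockout. Plasmacytoid dendritic cell markers summed to 19.7 to 23.1 CPM against 16.6 to 19.1 CPM at 10 weeks, with Klk1 at 0 in both groups. The complement gene C1qb, of the monocyte and interstitial macrophage list, fell over both ages (-1.84 ± 0.35 SE, edgeR adjusted p = 0.0379). That list summed to 116 to 142 CPM in wild type and 127 to 164 CPM in knockout at 10 weeks. At 4 weeks it summed to 112 to 127 against 107 to 110 CPM. Hbb-b1 and Alas2 of the erythroid list also fell over both ages. Erythroid markers summed to 70.6 to 161 against 48.2 to 53.0 CPM at 10 weeks and 1330 to 3149 against 348 to 643 CPM at 4 weeks. T cell markers, mostly Cd2, summed to 186 to 213 against 132 to 141 CPM at 4 weeks. Lung epithelial markers were higher in the 10-week knockout, at 309 to 415 CPM against 182 to 225 CPM. The part of these cells in the gene differences was not tested. In bulk samples fewer cells of a type and less RNA per cell cannot be told apart.

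**Figure D3:**
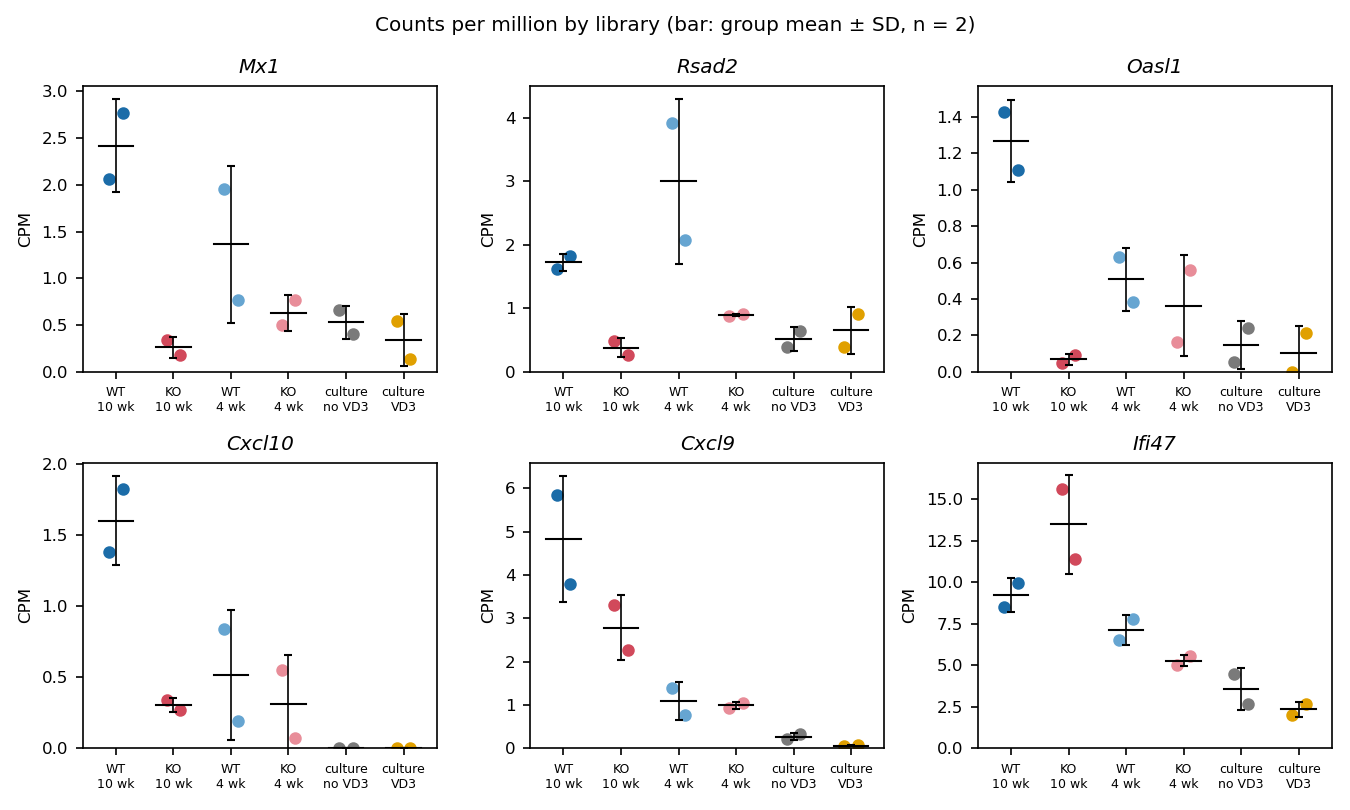
CPM is plotted for 6 genes in each of the 12 libraries, with the group mean and SD (n = 2) as bars. Mx1 and Rsad2 were lower in both knockout groups than in wild type of the same age, Cxcl9 was highest at 10 weeks, and Cxcl10 was at 0 in all 4 cultured libraries.

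Age was compared within each genotype, and these comparisons share libraries with those of genotype. In wild type 1 of 34 genes was higher at 10 than at 4 weeks and 0 were lower (2.11% of all genes passed, 1.4% as higher). Cxcl9, a chemokine induced chiefly by interferon gamma, had 5.86 and 3.80 CPM at 10 weeks and 1.40 and 0.773 CPM at 4 weeks. It rose by 2.18 ± 0.45 SE on the log2 scale (edgeR adjusted p = 0.032). The call was lost when any of the 4 libraries was left out (adjusted p 0.0571 to 0.302) and with the replicate block (2.28, adjusted p = 0.101). Stat2 was close, at 91.9 and 82.8 against 67.0 and 65.1 CPM (0.40 ± 0.10 SE; edgeR adjusted p = 0.0528), and passed in DESeq2 (adjusted p = 0.03). Lung epithelial markers summed to 182 to 225 CPM at 10 weeks and 51.5 to 98.5 CPM at 4 weeks. From that list only Epcam passed, as higher at 10 weeks (2.52 ± 0.35 SE, edgeR adjusted p = 0.00492). Sftpc, Sftpb, Sftpa1 and Scgb1a1 had higher values and Foxj1, Ager, Krt18 and Hopx lower values without passing. Conventional dendritic cell markers overlapped in sum, at 62.3 to 80.2 and 35.3 to 99.8 CPM. Of that list only Clec9a passed, as higher at 10 weeks (2.72 ± 0.34 SE, edgeR adjusted p = 0.00297). Flt3, Zbtb46 and Xcr1 had higher values and Ccr7, Ccl22 and Fscn1 lower values without passing. Erythroid markers summed to 70.6 to 161 against 1330 to 3149 CPM. Their part in the Cxcl9 difference was not tested. The interferon gamma receptor chain Ifngr1, from the list of receptors, also rose (0.54 ± 0.12 SE; edgeR adjusted p = 0.0457).

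In the libraries labelled knockout 2 of 34 genes were higher at 10 weeks, Ifi47 and Ifih1, where 9.73% of all genes passed and 4.89% were higher. Ifi47 had 15.6 and 11.4 CPM at 10 weeks and 5.04 and 5.53 CPM at 4 weeks (log2 difference 1.36 ± 0.27 SE; edgeR adjusted p = 0.0105). Ifih1, which encodes the RNA sensor MDA5, had 75.2 and 67.1 CPM against 49.3 and 45.9 CPM (0.58 ± 0.13 SE; edgeR adjusted p = 0.0173). Both calls were lost without knockout replicate 1 at 10 weeks, without either 4-week knockout replicate, with the exchange of labels and with the replicate block (adjusted p of 0.0585 and 0.0695). Among 71 other interferon-stimulated genes tested, 5 rose and 1 fell, and the risers included the guanylate-binding proteins Gbp7 (0.72 ± 0.11 SE), Gbp8 (1.51 ± 0.28 SE) and Gbp5 (1.40 ± 0.29 SE). Lung epithelial markers also differed with age in knockout, 309 to 415 CPM at 10 weeks and 66.5 to 229 CPM at 4 weeks. From that list Epcam and Ager passed as higher. Without passing, Hopx had a lower value and the rest higher values. The 4-week libraries were all of 1 title series, and in each genotype only replicate 2 at 10 weeks had high Xist. Age, sex and title series thus cannot be fully told apart.

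The second question was what vitamin D3 did to cultured wild-type cells. With vitamin D3 5 of 34 genes fell and 0 rose, where 10.6% of all genes passed and 5.63% fell. They belong to 3 families: the signalling factor Stat2, the RNA sensors Ddx58 and Dhx58, and the pair Dtx3l and Parp9. The decreases were between 1.30-fold and 1.73-fold. At an unadjusted p under 0.05 there were 12 genes lower and 0 higher (12.6% of all genes were lower), 21 of 34 did not overlap with lower values (24.7% of all genes), and 29 of 34 had lower values (49.9% of all genes), with a median log2 difference of -0.43 against 0 for all genes. Of the 18 more abundant genes 16 had lower values, with a median of -0.39, where 48.6% of all genes above 5 CPM did.

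Dtx3l had 52.7 and 42.1 CPM without vitamin D3 and 24.6 and 30.6 CPM with it, a decrease of 1.73-fold (log2 difference -0.79 ± 0.14 SE; edgeR adjusted p = 0.0042). Parp9, its partner, which binds ADP-ribose, had 37.4 and 41.2 CPM against 31.6 and 28.9 CPM (-0.37 ± 0.10 SE; edgeR adjusted p = 0.0362). Their exons share 458 bases on opposite strands in GRCm38, and the strand setting of the counting is not given, so reads there cannot be assigned to 1 of the pair. Parp14, their neighbour, had 82.2 and 52.0 CPM against 50.9 and 47.9 CPM and did not pass (edgeR adjusted p = 0.148). Both treated libraries lay below both untreated ones for all 3 genes.

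Ddx58, which encodes the RNA sensor RIG-I, had 41.9 and 35.0 CPM without and 26.1 and 22.97 CPM with vitamin D3 (log2 difference -0.65 ± 0.12 SE; edgeR adjusted p = 0.0064). Dhx58, which encodes the related regulator LGP2, had 18.8 and 23.2 CPM against 12.9 and 12.9 CPM (-0.69 ± 0.14 SE; edgeR adjusted p = 0.00868). Ifih1, the third member of this helicase family, had 47.1 and 38.9 CPM against 32.7 and 32.3 CPM and did not pass (-0.40 ± 0.13 SE; edgeR adjusted p = 0.0763). The groups were apart for all 3 sensors. Stat2 had 74.5 and 67.6 CPM against 53.8 and 53.5 CPM (-0.41 ± 0.10 SE; edgeR adjusted p = 0.0188).

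The OAS family did not move as 1 group. Oas1a had the largest difference upward of the 34 genes, at 25.2 and 23.2 CPM without and 33.6 and 28.2 CPM with vitamin D3 (0.35 ± 0.18 SE; edgeR adjusted p = 0.287). Oas3 had 4.49 and 2.02 CPM against 1.08 and 1.62 CPM, and Oasl2 had 1.42 and 1.13 CPM against 0.197 and 0.562 CPM. Oas2 had 13 and 6 counts against 0 and 3, a ratio of 7.15 (95% counting interval 2.10 to 37.7). Neither Oas2, Oas3 nor Oasl2 passed, although none of them overlapped between groups. Bst2 differed by -0.09 ± 0.18 SE, with overlapping groups at 37.4 and 49.8 against 37.3 and 44.6 CPM.

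**Figure D4:**
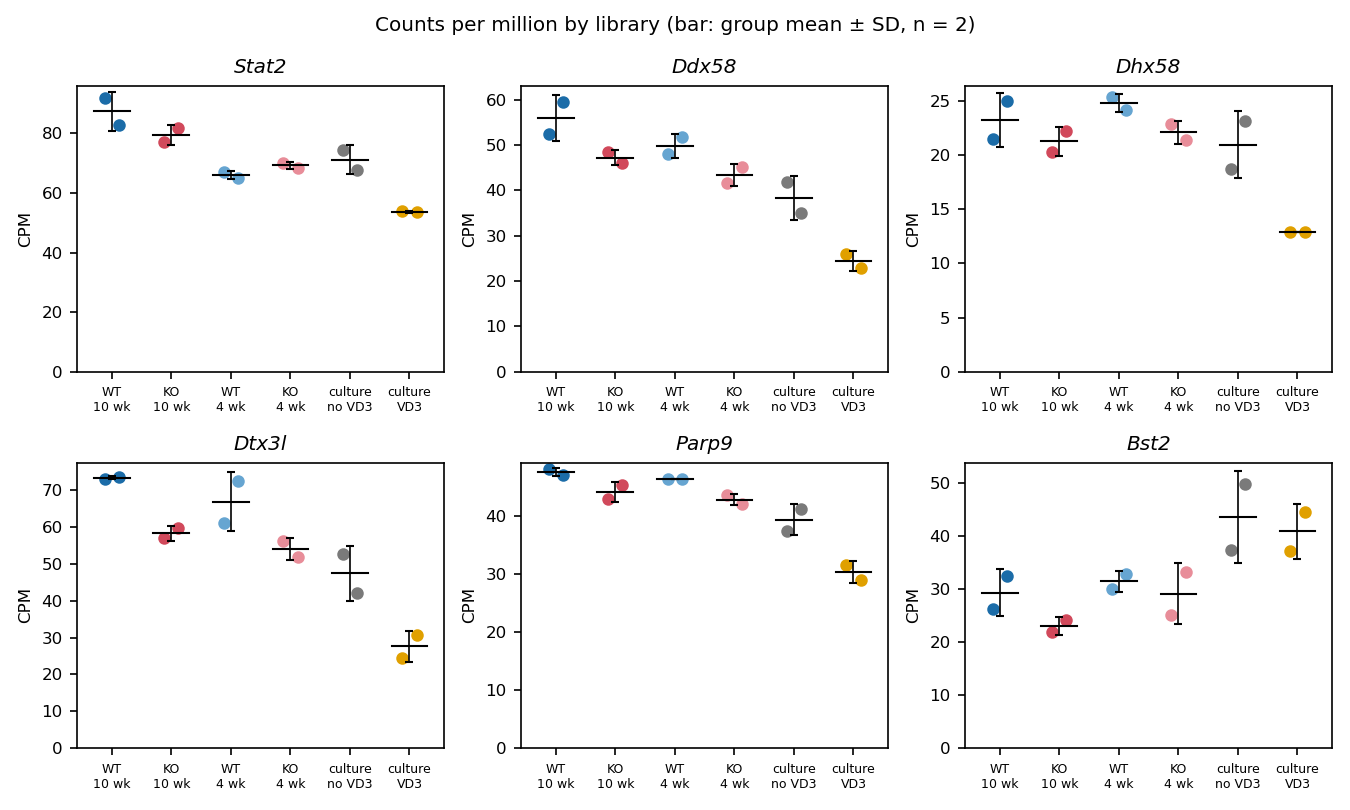
CPM is plotted in each of the 12 libraries for the 5 genes that fell with vitamin D3 and for Bst2, with the group mean and SD (n = 2) as bars. For the 5 genes both treated libraries lie below both untreated ones, while Bst2 overlaps.

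The direction held in both title series: vitamin D3 gave lower values for 27 of 34 genes in the first pair of libraries (median -0.25) and for 31 in the second (median -0.29) on the log2(CPM + 1) scale. The number of calls rested on single libraries. Without untreated replicate 1 it was 2, without treated replicate 1 it was 1, and with only the 2 cultured groups in the fit it was 1, Dtx3l. Dtx3l passed in 11 of 12 alternatives, Ddx58 in 10, Dhx58 in 9, Stat2 in 8 and Parp9 in 3. Among the 12 alternatives, the exchange of labels and the fit without the high-Xist libraries changed no cultured library. They could act on these calls only through the fit shared with the fresh groups. Monocyte and interstitial macrophage markers summed to 109 to 199 CPM without and 46.0 to 98.3 CPM with vitamin D3, mostly Fcgr4. Conventional dendritic cell markers summed to 35.7 to 40.2 against 28.6 to 32.1 CPM, with Cd209a at 0 in both. T cell markers summed to 220 to 228 against 124 to 138 CPM, nearly all from Cd2. Cd2 fell (-0.79 ± 0.11 SE, edgeR adjusted p = 0.00074), and Cd5 was at 0 in the treated group. The rest of that list moved both ways without passing. Cd3e, Cd3g, Lck and Thy1 had higher values and Cd3d, Cd4 and Cd8a lower values. The part of these cells in the result was not tested.

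Other genes of the pathway moved both ways. Of 71 other interferon-stimulated genes tested, 8 fell and 2 rose with vitamin D3. In this comparison 10.6% of all genes passed and 5.63% fell. Gbp7 (-0.81 ± 0.14 SE), Ifi203 (-1.52 ± 0.26 SE) and Lgals3bp (-0.77 ± 0.15 SE) fell. Pml, which organises nuclear bodies, went from 21.3 and 24.9 CPM to between 61.5 and 72.9 CPM (1.54 ± 0.14 SE; edgeR adjusted p = 4.69e-05), and Daxx, another component of those bodies, rose too (0.52 ± 0.09 SE). Of 10 JAK-STAT and IRF genes, Irf4 rose (3.68 ± 0.44 SE) and Jak2 fell (-0.51 ± 0.13 SE). Among 13 genes that sense nucleic acid, Mb21d1, which encodes cGAS, and Ticam1 rose, and Tlr3 fell (-0.70 ± 0.20 SE). None of the 6 receptor genes passed in edgeR, with 1 lower at an unadjusted p under 0.05.

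More genes passed between cultured and fresh cells. Untreated cultured cells were compared with fresh wild-type cells, and these comparisons share the untreated libraries with the vitamin D3 comparison. Against 10-week cells 18 of 34 genes fell and 1 rose, where 42.4% of all genes passed and 21.2% fell. Against 4-week cells 10 fell and 1 rose, where 39.7% passed and 19.5% fell. The median log2 differences were -0.49 and -0.33. Ifit1, Ifit3, Oasl1, Oas2, Mx1, Rsad2, Cxcl9 and Cxcl10 reached the filter's level in both libraries of a group only in fresh groups. Their direction in culture is thus partly fixed by the filter. Of the 18 genes with a mean of 5 CPM or more, 11 fell against 10-week cells and 6 against 4-week cells. Of all genes above that level 22.6% and 20.8% fell. Within the 2 title series, on the log2(CPM + 1) scale, 26 and 30 of 34 genes were lower in culture than in 10-week cells. The medians were -0.45 and -0.55. In the second series the 10-week library had high Xist and the cultured one did not.

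Both chemokines fell against fresh cells of each age. Cxcl10 reached the filter's level in both libraries of a group only in 10-week wild type, and Cxcl9 only in fresh groups, so this direction is partly fixed by the filter. Cxcl9 had 5.86 and 3.80 CPM in fresh 10-week cells and 0.219 and 0.324 CPM in culture (log2 difference -4.16 ± 0.54 SE; edgeR adjusted p = 8.93e-05). Cxcl10 had 0 counts in all 4 cultured libraries, which makes it at least 15.8-fold lower than in 10-week and at least 4.66-fold lower than in 4-week cells, with 3 counts over the group as the floor. The groups did not overlap for either gene at either age.

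Ifi35, which binds other interferon-induced proteins, had 25.7 and 28.7 CPM in 10-week cells, 31.4 and 30.0 CPM in 4-week cells and 16.3 and 18.7 CPM in culture (-0.63 ± 0.14 and -0.82 ± 0.14 SE; edgeR adjusted p = 0.00404 and 0.000828). Tap1, the peptide transporter for class I antigen presentation, had 45.3 and 46.1 CPM, 56.5 and 46.0 CPM and 28.4 and 32.1 CPM in the same order (-0.60 ± 0.17 and -0.76 ± 0.17 SE). Its exons share 212 bases with Psmb9 on the opposite strand. Among the GTPases Gbp3, Ifi47 and Igtp fell against both ages, while Irgm1 rose against 4-week cells (0.53 ± 0.14 SE). Igtp shares 8.01% of its exon bases with Irgm2 on the same strand, so its reads may be split between them.

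Bst2 rose against 10-week cells, from 26.2 and 32.5 CPM to 37.4 and 49.8 CPM (0.57 ± 0.18 SE; edgeR adjusted p = 0.0231). Mx1 and Rsad2 fell against 10-week cells, and Rsad2 fell against 4-week cells as well. For both genes this direction is partly fixed by the filter, as given above. The number of genes that fell against 10-week cells was between 8 and 12 when any of the 4 libraries was left out, and against 4-week cells 5 or 6. Bst2 did not pass without untreated replicate 2 or 10-week replicate 1, and Irgm1 did not pass without either 4-week replicate. Lung epithelial markers summed to 17.6 to 23.4 CPM in untreated culture against 182 to 225 CPM in 10-week wild type. From that list Sftpc, Sftpb, Sftpa1, Scgb1a1 and Epcam fell, Hopx rose, and Foxj1, Ager and Krt18 did not pass. Among the 7 tested dendritic cell markers 5 fell. The part of these cells in the result was not tested.

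In the comparison with 10-week cells 42.4% of all genes passed, 21.2% as higher and 21.2% as lower. The 71 other interferon-stimulated genes tested moved both ways. Among those with the smallest p, Gbp7 (-2.75 ± 0.12 SE) and Ifi204 (-1.61 ± 0.18 SE) fell. Tor3a (1.58 ± 0.12 SE) and H2-T23 (1.13 ± 0.12 SE) rose. Of 6 receptor genes 3 rose and 2 fell against 10-week cells: Il10rb (1.09 ± 0.11 SE), Ifngr2 (0.70 ± 0.12 SE) and Ifnar2 (0.45 ± 0.11 SE) rose, and Ifngr1 (-1.26 ± 0.12 SE) and Ifnlr1 fell. Of 13 negative regulators tested 6 fell and 1 rose, the falls including the feedback inhibitors Socs1 (-2.92 ± 0.59 SE) and Socs3 (-3.001 ± 0.39 SE). Of 13 nucleic acid sensing genes 5 fell and 4 rose. Ikbke, a kinase that activates IRF3, went from 2.95 and 4.27 CPM to between 64.3 and 76.4 CPM (4.31 ± 0.31 SE; edgeR adjusted p = 1.01e-06), and the adaptor Mavs fell (-1.01 ± 0.12 SE).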

How the data were processed

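RNA from alveolar macrophages was sequenced in 12 libraries. Per the submitters' processing notes reads were handled with TopHat2 and edgeR on mm9; versions, annotation and strand setting were not stated in the labels used. The authors deposited raw gene counts and a table of log2(CPM + 1) values, used only to check group labels. Gene counts were fitted in edgeR 4.0.16 (R 4.3.3) with TMM scaling, filterByExpr (minimum count 10, total 15), 1 coefficient for each of 6 groups and 6 residual degrees of freedom; quasi-likelihood p-values were adjusted by Benjamini-Hochberg over 12748 genes, threshold 0.05. All 12 libraries share 1 estimate of the spread. CPM uses TMM library sizes. The script was tested on simulated data. Counting intervals (95%) and the floor of 3 counts cover counting error only; an exact test of 2 against 2 libraries cannot go below p = 0.333. Alternatives were DESeq2 1.42.0, its size factors, other filters, other sample sets, left-out libraries, exchanged labels, and title series or replicate as a term; the split at 5 CPM was chosen after seeing the data. The members, the other lists and these tests were chosen with earlier results of these data known. All 36 genes could be named; of other lists up to 4 genes with the smallest p among those that passed, and up to 3 most abundant markers. mm9 annotation was not used here, so lengths, overlaps and promoters come from GRCm38. Columns left unused: 0.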

Additional observations from a re-analysis of the deposited data

How the results depend on the processing

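Each call for a gene of the main set was recomputed under the alternatives above, and the counts below are of genes of that set. Calls for genes of the other lists and for cell markers were not rechecked. They rest on the main fit alone, among them Ube2l6, H2-K1, Phf11b, C1qb, Clec9a, Ifngr1, Pml and Cd2. Genes lower in knockout at 10 weeks numbered 1 with DESeq2 and 3 without a filter, in place of 0, and over both ages 2 with DESeq2, 3 without a filter and 1 with only the fresh groups in the fit, in place of 0. Genes higher with age in wild type numbered 2 with DESeq2, 2 without a filter, 0 without both high-Xist libraries and 0 with the replicate block, in place of 1; in knockout they numbered 4 without a filter, 0 with exchanged labels, 1 without both high-Xist libraries and 0 with the replicate block, in place of 2. Among all genes DESeq2 called 149 for knockout at 10 weeks, 369 over both ages and 676 for age in wild type. With only the cultured groups in the fit 1 gene fell with vitamin D3, in place of 5. Against 10-week cells 11 fell and 2 rose in culture with exchanged labels, and 8 fell without both high-Xist libraries, in place of 18 and 1; against 4-week cells 5 fell with only the groups compared and 2 rose without a filter, in place of 10 and 1. With 1 library left out at a time, where a lone library is assumed to vary like the other groups, the calls ranged from 0 to 0 for knockout at each age, 0 to 0 for age in wild type, 0 to 2 for age in knockout, 1 to 5 for vitamin D3, 8 to 12 lower and 0 to 1 higher for culture against 10 weeks, and 5 to 6 lower and 0 to 1 higher against 4 weeks. Exchanged labels turned the 10-week knockout difference of Irf7 to 0.22, Rsad2 to 0.0103, Dtx3l to 0.0392, Cxcl10 to 0.30 and Mx1 to 0.31, and the genotype-by-age difference of Oasl1 to 0.23. The median 10-week knockout difference was -0.11 with a filter of 5 CPM in 2 libraries and 0.0034 with exchanged labels. Apart from the fits with fewer libraries or genes, the cause was not tested. The labels do not say that replicate numbers pair samples: deviations of same-numbered libraries correlated at 0.17 at 10 weeks, where replicate 2 of both groups also shares sex and title series, at -0.18 at 4 weeks, and at 0.36 for cultures of the same title series, and the replicate block changed no calls other than the 3 for age. No replicate block was possible in culture, where the groups share only 1 number; the title series stood in. Counts of a few reads limit the scarce genes.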
